A study of Mus musculus with 16 samples.

Results

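Glucagon and cyclic AMP signalling was followed through 10 genes in mouse liver: the receptor gene Gcgr, the G protein gene Gnas, the cyclase genes Adcy6 and Adcy9, the protein kinase A genes Prkaca and Prkar1a, the exchange factor genes Rapgef3 and Rapgef4, and the transcription genes Creb1 and Crtc2. They were taken by symbol from a table of 55487 genes, where each stood on 1 row, and all 10 passed the filter on low counts that left 13905 genes for testing. The set was chosen by a measured value, the rise of Rapgef4 in Cre against GFP, which was among the firmest there, so Rapgef4 is described there without a test. The data were 16 liver RNA libraries from C57/Bl6J mice on a high-fat diet, all labelled with the conditional genotype J1 J2 lf/lf, which the controls carry too. There were 5 GFP libraries, the controls (LJ1J2control), 5 Cre libraries (LJ1J27a) and 6 Flpo libraries (LJ1J27b). The series text calls the mice hepatocyte-specific spliceoform models of JNK, the stress kinase c-Jun N-terminal kinase, and the group names point to its 7a and 7b forms. The labels used here give no age, sex or length of diet, and do not say how GFP, Cre or Flpo was delivered or whether each library came from a separate mouse.

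Glucagon is the fasting hormone of the pancreas. In hepatocytes its receptor acts through the stimulatory G protein on adenylyl cyclase, which makes cyclic AMP. Cyclic AMP releases the catalytic subunits of protein kinase A (PKA) from their regulatory subunits and opens the exchange factors called EPAC, which switch on the small GTPase Rap. PKA phosphorylates CREB and lets its coactivator CRTC2 enter the nucleus, and both act on genes of glucose production through the cyclic AMP response element in DNA.

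The 8 letters of that element, TGACGTCA, and its 5-letter core, TGACG, were searched on both strands in the 250 bases before the annotated start of each gene (RefSeq, GRCm38.p6). Every match to the long motif also contains the core. A window could be matched for 8 of the 10 genes. The core was present for 5 of the 8 and the full motif for 1, Prkar1a. Of all 32851 such windows, 17.8% held the core and 1.55% the full motif, and genes with several starts had several windows. The 8 genes had 17 windows, so these shares by window are not a like measure for counts by gene. The sequences shown are the window of Rapgef4, which moved most, that of Adcy9, which differed between Flpo and Cre, and the stretch of Prkar1a that holds the full motif. Capitals mark the motif letters.
Rapgef4, chr2:71980965-71981214, plus strand: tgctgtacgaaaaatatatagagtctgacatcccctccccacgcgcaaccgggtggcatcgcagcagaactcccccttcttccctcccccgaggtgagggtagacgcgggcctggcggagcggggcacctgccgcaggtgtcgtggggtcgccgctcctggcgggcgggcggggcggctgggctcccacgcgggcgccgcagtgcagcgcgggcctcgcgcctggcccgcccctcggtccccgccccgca
Adcy9, chr16:4420499-4420748, minus strand: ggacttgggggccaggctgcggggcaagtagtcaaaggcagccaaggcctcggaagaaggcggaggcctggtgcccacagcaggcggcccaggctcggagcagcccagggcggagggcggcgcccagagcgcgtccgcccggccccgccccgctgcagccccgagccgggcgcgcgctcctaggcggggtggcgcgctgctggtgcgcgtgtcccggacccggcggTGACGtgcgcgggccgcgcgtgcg
Prkar1a, chr11:109650889-109650918, plus strand: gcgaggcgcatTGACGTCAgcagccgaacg
The 1 window searched for Rapgef4 held neither motif. That gene has 3 annotated coding starts, so not every start was searched, and the start used in these livers was not tested. In Adcy9 the core began 24 bases before the start. Prkar1a had several windows, and only 1 held the full motif, which began 49 bases before the start of that window's transcript. Whether these livers use that start was not tested. These matches describe the letters and do not show that a factor bound there.

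The libraries held between 27929393 and 36043322 counts, and between 17067 and 18257 genes above 0. Levels are given as counts scaled to the library total and its composition (CPM). Mup transcripts, which encode abundant secreted urinary proteins, took 2.24 to 3.91% of a GFP library, 5.65 to 13.8% of a Cre library and 1.95 to 6.49% of a Flpo library. The summed level of 6 hepatocyte markers had a median of 108225 CPM in Cre (range 89770 to 109825), above the medians of 87595 in GFP (79398 to 100882) and 84701 in Flpo (80854 to 99110), with overlapping ranges. Alb made up most of that sum, at a mean of 74801 CPM in Cre and 62471 in GFP. Apoa1, Hnf4a and Ass1 also had higher means in Cre than in GFP. Ttr and Cyp2e1 went the other way, at 4772 and 8764 CPM in Cre beside 6091 and 9658 in GFP. The summed level of 8 stellate cell markers was 122 to 212 CPM in Cre. This overlapped the 186 to 289 CPM of GFP and lay below the 216 to 325 CPM of Flpo. None of the 8 was at 0 in all libraries. The collagen genes Col1a1, Col1a2 and Col3a1 averaged 6.23, 8.23 and 10.03 CPM in Cre, beside 21.2, 23.3 and 35.8 in GFP. Lrat, Des, Reln and Dcn also had lower means in Cre than in GFP. Rgs5 went the other way, at 23.04 CPM in Cre beside 21.4 in GFP. Des was lower in Flpo, at 3.08 CPM, than in Cre, at 3.31. The part of these marker levels and of the Mup share in the differences between Cre and the other groups was not tested. The gene totals of Mapk8 and Mapk9, which encode JNK1 and JNK2, were 11.7 ± 3.04 and 42.7 ± 14.1 CPM in GFP (SD, n = 5), 11.4 ± 2.45 and 33.1 ± 5.50 in Cre (SD, n = 5), and 13.5 ± 0.82 and 46.3 ± 4.21 in Flpo (SD, n = 6). Gene totals do not separate the spliced forms, so they do not check the labels. In whole liver, fewer cells of a type and less RNA per cell cannot be told apart.

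By abundance scaled for gene length (TPM), the genes formed a wide range. Gnas was highest, with a median of 400.1 TPM over the 16 libraries, followed by Gcgr at 131. Prkar1a, Rapgef4 and Prkaca had medians of 46.0, 36.7 and 35.9 TPM, and their ranges over libraries overlapped. Crtc2 and Adcy6 had medians of 11.6 and 11.4 TPM with overlapping ranges. Adcy9 at 3.68 and Creb1 at 1.75 TPM were low, and Rapgef3 was last at 0.628, with ranges that met those of their neighbours. The range of Gcgr, 79.1 to 138 TPM, met neither that of Gnas above it, 315 to 447, nor that of Prkar1a below it, 40.4 to 58.8.

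**Figure D1:**
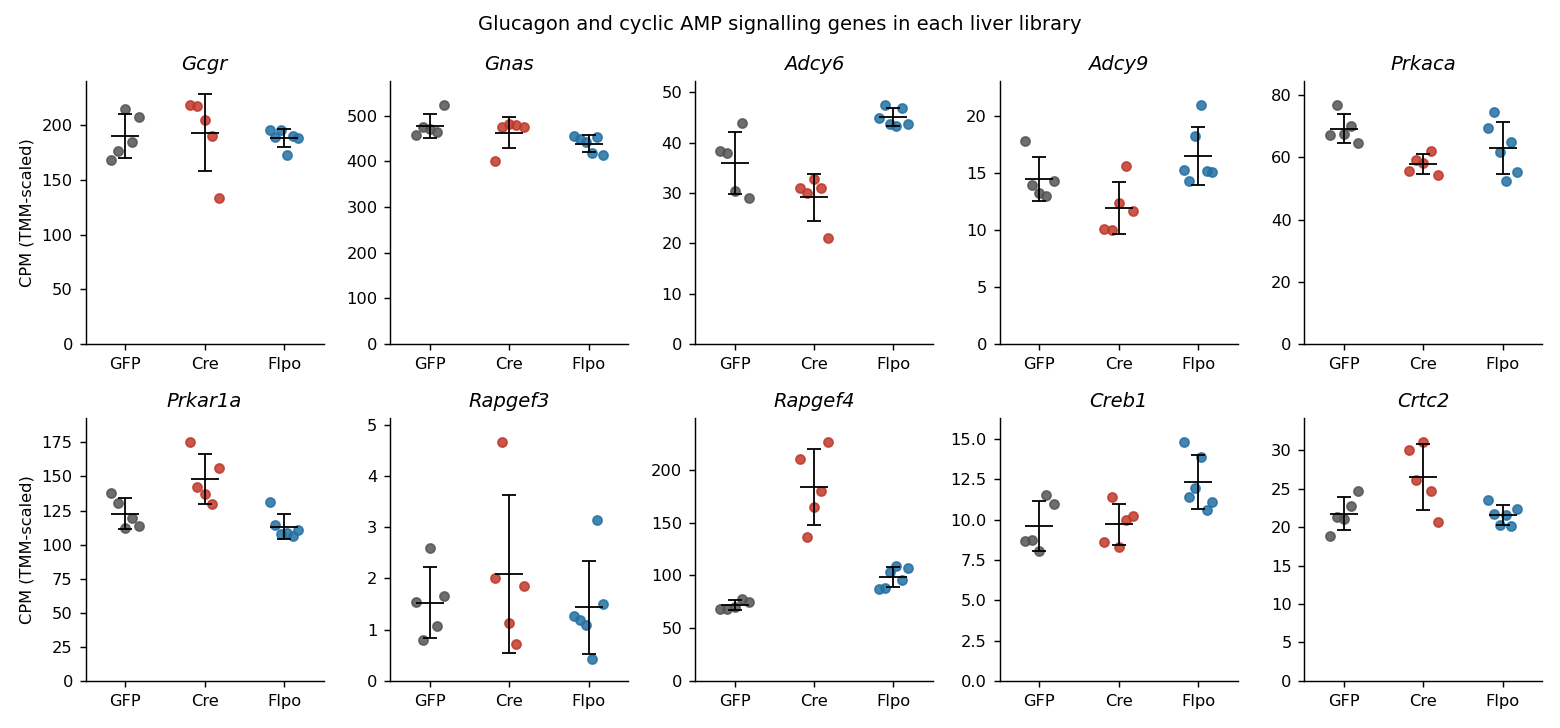
Level of each of the 10 genes in CPM (vertical axis, from 0) in the GFP, Cre and Flpo libraries, 1 point per library. Rapgef4 lies between 136 and 227 CPM in Cre and between 68.2 and 77.7 in GFP, with Flpo between them at 87.4 to 109.

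Rapgef4 (chr2:71981240-72257474, plus strand, GRCm38) encodes EPAC2, an exchange factor that loads Rap with GTP when it binds cyclic AMP. It stood at 68.2, 68.4, 70.0, 77.7 and 75.2 CPM in GFP replicates 1 to 5. In Cre replicates 1 to 5 it stood at 210, 136, 165, 180 and 227 CPM. The 6 Flpo libraries had a lowest value of 87.4, a median of 99.4 and a highest of 109 CPM. The 3 groups did not overlap: GFP was lowest, Flpo intermediate and Cre highest. Of all genes tested, 3.58% had every Cre library above every GFP library and 3.3% every Flpo library below every Cre library.

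The means of Rapgef4 were 71.9 ± 4.30 CPM in GFP (SD, n = 5), 183 ± 35.9 in Cre (SD, n = 5) and 98.2 ± 9.36 in Flpo (SD, n = 6). In the fit, Rapgef4 had a log2 fold change of 1.35 (SE 0.12) in Cre against GFP, a 2.55-fold higher level, and -0.90 (SE 0.11) in Flpo against Cre. Both rest on the Cre libraries that chose the gene and carry no test. Leaving out each library in turn gave 1.26 to 1.44 for Cre against GFP. In Flpo against GFP the log2 fold change was 0.45 (SE 0.11), with an adjusted p of 0.232 in edgeR's quasi-likelihood test, although all 6 Flpo libraries lay above all 5 GFP libraries, as in 0.676% of all genes. With DESeq2 the adjusted p of that comparison was 0.0411, past the threshold of 0.05, and over 31 alternatives it ran from there to 0.548. The GFP libraries are shared with the contrast that chose Rapgef4, so their values are not independent of that choice. Nothing is read from these p-values or from the lack of overlap between Flpo and GFP.

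Its paralog Rapgef3 (chr15:97744770-97767972, minus strand) encodes EPAC1. Rapgef3 was near the low end of what the libraries could measure, at 0.43 to 3.15 CPM in Flpo, 0.73 to 4.67 in Cre and 0.79 to 2.59 in GFP, and the groups overlapped throughout. Rapgef3 had a log2 fold change of 0.44 (SE 0.50, edgeR adjusted p = 0.643) in Cre against GFP and -0.53 (SE 0.47, adjusted p = 0.512) in Flpo against Cre. At this level and spread a moderate difference was not detectable. Rapgef4 made up 97.5 ± 1.14% of the summed EPAC transcripts in TPM in GFP (SD, n = 5), 98.5 ± 1.41% in Cre (SD, n = 5) and 98.2 ± 1.11% in Flpo (SD, n = 6). EPAC RNA in these livers was thus almost all Rapgef4 in every group. An annotated opposite-strand gene covers 5.05% of the exon bases of Rapgef4. Of those of Rapgef3, Rapgef3os1 covers 3.72% and Rapgef3os2 covers 5.54%, both on the opposite strand. The counting's use of strand is not given in the sources used here. Rapgef4 has 3 annotated coding transcripts with 3 starts, and gene totals do not tell them apart.

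**Figure D2:**
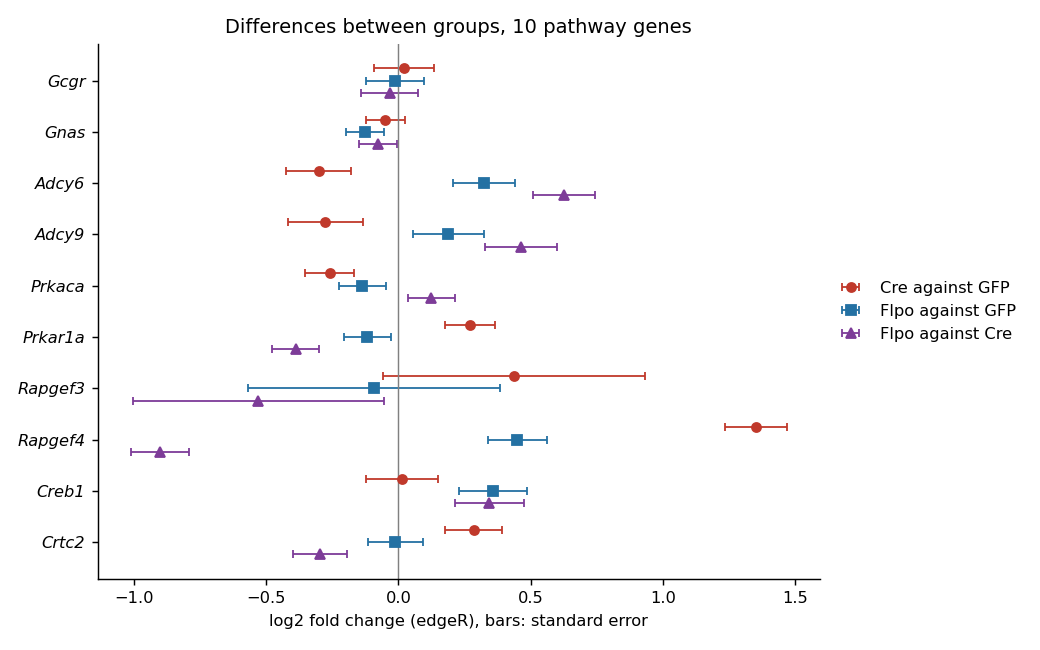
Log2 fold change (horizontal axis) of each of the 10 genes in the 3 comparisons, with bars for the standard error. Rapgef4 stands at 1.35 in Cre against GFP, and Adcy6, at 0.62 in Flpo against Cre, has the widest difference among the other genes that passed the test.

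In Cre against GFP, 9.55% of all genes tested passed an adjusted p of 0.05. None of the 9 genes other than Rapgef4 passed in edgeR, where 4 of them had an unadjusted p under 0.05. DESeq2 called 1 of the 9, limma-voom 0, and limma-voom with sample weights 1. This contrast chose the set, so nothing is read from these counts. In Flpo against GFP, where 0.0288% of all genes passed, none of the 9 passed either. Of these, 2 had an unadjusted p under 0.05, and DESeq2 and both forms of limma-voom called 0. In Flpo against Cre, 3 of the 9 passed, where 13.7% of all genes passed. Adcy6 and Adcy9 were higher, as 7.45% of all genes were, and Prkar1a was lower, as 6.26% were. The 3 comparisons share libraries in pairs, so their values are not independent.

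Gcgr (chr11:120530699-120538986, plus strand), the glucagon receptor gene, stood at 168, 177, 215, 185 and 207 CPM in GFP and at 218, 218, 205, 190 and 134 in Cre. The Flpo libraries had a lowest value of 173, a median of 190 and a highest of 196 CPM. The ranges were nested, and Cre replicate 5 alone fell below all others. Cre against GFP gave a log2 fold change of 0.02 (SE 0.11, edgeR adjusted p = 0.937), Flpo against GFP one of -0.01 (SE 0.11, adjusted p = 0.983), and Flpo against Cre one of -0.03 (SE 0.11, adjusted p = 0.88). No difference was detectable within these errors.

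Gnas (chr2:174284320-174346744, plus strand) encodes the stimulatory G protein alpha subunit, among other imprinted products of a complex locus. It stood at 457, 476, 471, 464 and 523 CPM in GFP and at 401, 474, 482, 478 and 475 in Cre. In Flpo it ran from 413 to 454 with a median of 446 CPM. All 6 Flpo libraries lay below all 5 GFP libraries, as 0.877% of all genes tested did. Flpo against GFP gave a log2 fold change of -0.12 (SE 0.07) with an edgeR adjusted p of 0.59, so the difference did not pass. Opposite-strand genes cover 13.1% (Gm20721) and 8.83% (Nespas) of the exon bases of Gnas.

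Adcy6 (chr15:98589973-98610076, minus strand), which encodes a calcium-inhibited adenylyl cyclase of hepatocytes, was higher in Flpo than in Cre. Its levels were 38.4, 38.1, 30.5, 43.9 and 29.1 CPM in GFP and 31.1, 30.0, 32.9, 31.1 and 21.1 in Cre. In Flpo the lowest value was 43.4, the median 44.4 and the highest 47.5 CPM. Every Flpo library exceeded every Cre library, as 4.49% of all genes did, while GFP overlapped both groups.

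Adcy6 averaged 35.98 ± 6.15 CPM in GFP (SD, n = 5), 29.2 ± 4.68 in Cre (SD, n = 5) and 45.1 ± 1.77 in Flpo (SD, n = 6). Flpo against Cre gave a log2 fold change of 0.62 (SE 0.12, edgeR adjusted p = 0.00178), a 1.54-fold higher level. Against GFP the log2 fold changes were 0.32 (SE 0.12, adjusted p = 0.4) for Flpo and -0.30 (SE 0.12, adjusted p = 0.133) for Cre. The opposite-strand gene Gm29331 covers 8.92% of the exon bases of Adcy6. Scaling by library totals alone put Cre below GFP by -0.45 (adjusted p = 0.0342), with the median of all genes then at -0.14. Over all alternatives the adjusted p of that comparison ran from 0.0342 to 0.61, and that of Adcy6 in Flpo against Cre from 2.19e-05 to 0.533.

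Adcy9 (chr16:4287529-4420498, minus strand) encodes a more widely expressed cyclase. Its levels were 17.9, 13.96, 13.3, 13.03 and 14.3 CPM in GFP and 10.1, 10.03, 12.4, 15.6 and 11.7 in Cre. Flpo ran from 14.3 to 21.0 with a median of 15.2 CPM. Flpo and Cre overlapped only through Cre replicate 4. In Flpo against Cre, Adcy9 had a log2 fold change of 0.46 (SE 0.14, edgeR adjusted p = 0.0297). That call was lost without Cre replicate 1, 2, 3 or 5 or Flpo replicate 3 or 4, with adjusted p between 0.0539 and 0.0824, and with only the Flpo and Cre libraries in the fit, at 0.0513. Over all alternatives the adjusted p ran from 0.00617 to 0.834.

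Among adenylyl cyclase transcripts in TPM, Adcy6 made up 65.5 ± 4.61% in GFP (SD, n = 5), 61.5 ± 10.1% in Cre (SD, n = 5) and 68.4 ± 3.8% in Flpo (SD, n = 6). Adcy9 made up 24.3, 22.8 and 22.7% on average in the same order. Neither share differed between groups by the exact permutation test, two-sided and adjusted over 12 share tests, where the smallest adjusted p for a cyclase was 0.338. Both Adcy6 and Adcy9 were higher in Flpo than in Cre, and their shares of the cyclase RNA were not distinguishable. Cre replicate 5, with an Adcy6 share of 44.0%, was the lowest library.

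Prkaca (chr8:83972993-83996443, plus strand) encodes the main catalytic subunit of PKA. It stood at 67.2, 76.8, 67.5, 69.9 and 64.4 CPM in GFP and at 55.4, 59.0, 58.2, 62.05 and 54.1 in Cre. All 5 Cre libraries lay below all 5 GFP libraries, as 4.62% of all genes tested did. Flpo ran from 52.4 to 74.4 with a median of 63.1 CPM and covered both. In Cre against GFP, Prkaca had a log2 fold change of -0.26 (SE 0.09, edgeR adjusted p = 0.0871). It passed with library totals alone, at -0.40 (adjusted p = 0.0101), and with limma on log2(TPM + 1), at -0.43 (adjusted p = 0.00991), settings that also moved the median of all genes to -0.14 and -0.12. Over all alternatives the adjusted p ran from 0.00968 to 0.634.

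Prkar1a (chr11:109649405-109669656, plus strand) encodes the type I regulatory subunit that holds the catalytic subunits inactive. Its levels were 138, 131, 112, 119 and 113 CPM in GFP and 176, 142, 137, 130 and 156 in Cre. In Flpo the lowest value was 106, the median 110 and the highest 131 CPM. The highest Flpo library stood just above the lowest Cre library, replicate 4, and the other 5 lay below all Cre libraries.

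The means of Prkar1a were 123 ± 11.3 CPM in GFP (SD, n = 5), 148 ± 18.1 in Cre (SD, n = 5) and 113 ± 9.32 in Flpo (SD, n = 6). Flpo against Cre gave a log2 fold change of -0.39 (SE 0.09, edgeR adjusted p = 0.00755). It did not pass with library totals alone, at -0.25 (adjusted p = 0.0735), or with limma on log2(TPM + 1), at -0.17 (adjusted p = 0.25). In Cre against GFP the log2 fold change of Prkar1a was 0.27 (SE 0.09, adjusted p = 0.0793), and it passed with DESeq2 at 0.28 (adjusted p = 0.0405). Over all alternatives the adjusted p of Prkar1a ran from 0.0405 to 0.892 in Cre against GFP and from 0.000571 to 0.971 in Flpo against Cre. The full cyclic AMP response element printed above lies before only 1 of its annotated starts, and any part of it in these levels was not tested.

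**Figure D3:**
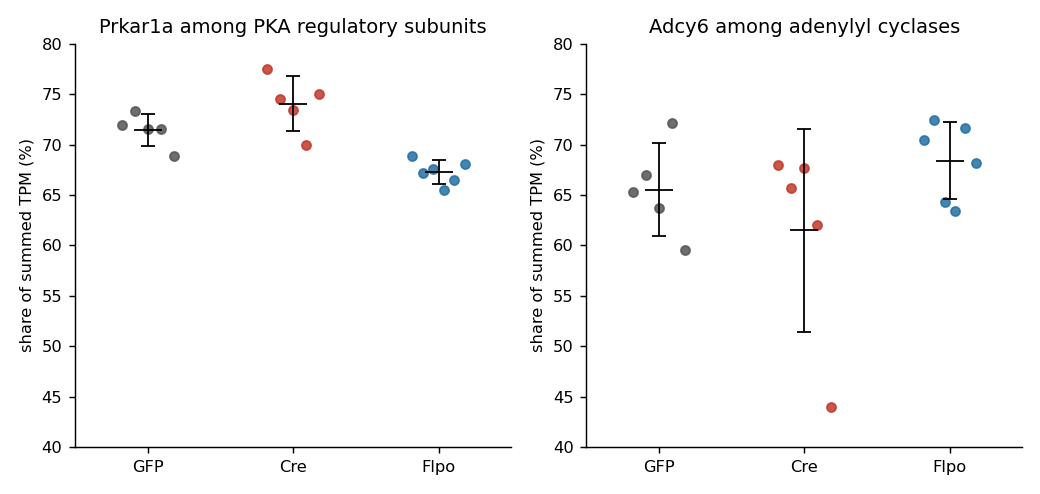
Share of each named gene in the summed TPM of its gene family (vertical axis in percent, drawn from 40 to 80 rather than from 0), 1 point per library in each group. The Prkar1a share is 65.5 to 68.8% in the 6 Flpo libraries and 70.0 to 77.5% in the 5 Cre libraries.

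By the exact permutation test given below, the Prkar1a share of PKA regulatory RNA was lower in Flpo than in each other group. Neither difference passed once a library of the group compared with Flpo was left out, at an adjusted p of 0.0571. Shares were not fitted with the clock gene score that is described below. Prkar1a made up 72.0, 73.3, 71.6, 71.6 and 68.9% of the summed TPM of the 4 regulatory subunit genes in GFP, and 77.5, 74.5, 73.5, 70.0 and 75.0% in Cre. In Flpo the lowest share was 65.5%, the median 67.4% and the highest 68.8%. All 6 Flpo libraries thus lay below every library of the other groups, though the highest Flpo share and the lowest GFP share were almost equal.

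The mean Prkar1a share was 71.5 ± 1.62% in GFP (SD, n = 5), 74.1 ± 2.72% in Cre (SD, n = 5) and 67.3 ± 1.19% in Flpo (SD, n = 6). Flpo was lower by -4.19 points than GFP (exact two-sided permutation p = 0.00433, adjusted p = 0.026) and by -6.81 points than Cre (p = 0.00433, adjusted p = 0.026). The value 0.00433 is the smallest that 5 libraries against 6 can give. Cre and GFP differed by 2.61 points (exact permutation p = 0.111, adjusted p = 0.338). The share of Prkaca among the PKA catalytic genes was 74.9, 74.5 and 73.0% in GFP, Cre and Flpo, with adjusted p of at least 0.586 in each exact permutation test. Prkar2a, the next regulatory gene, stood at 84.0 ± 4.72 CPM in Flpo, 76.7 ± 6.27 in Cre and 74.9 ± 5.24 in GFP (SD, n = 6, 5 and 5), and its own differences did not pass in edgeR (adjusted p = 0.494 for Flpo against GFP and 0.276 for Flpo against Cre).

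Creb1 (chr1:64532645-64604548, plus strand) encodes the transcription factor that PKA phosphorylates. It stood at 8.69, 8.76, 8.06, 11.6 and 10.98 CPM in GFP and at 8.64, 11.4, 8.29, 9.99 and 10.3 in Cre. Flpo ran from 10.6 to 14.8 with a median of 11.7 CPM and overlapped both groups. Creb1 had a log2 fold change of 0.36 (SE 0.13, edgeR adjusted p = 0.4) between Flpo and GFP, and 0.34 (SE 0.13, adjusted p = 0.0894) between Flpo and Cre. The latter passed with library totals alone, at 0.48 (adjusted p = 0.0232), the lowest of a range up to 0.852 over all alternatives.

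Crtc2 (chr3:90254163-90264125, plus strand) encodes the coactivator that fasting signals send to the nucleus. Its levels were 18.9, 21.4, 21.1, 22.8 and 24.7 CPM in GFP and 30.1, 26.1, 31.1, 24.7 and 20.6 in Cre. Flpo ran from 20.1 to 23.5 with a median of 21.6 CPM. In Cre, replicates 1 to 4 lay above every GFP and Flpo library, replicate 4 narrowly, and replicate 5 lay within GFP. Crtc2 had a log2 fold change of 0.28 (SE 0.11, edgeR adjusted p = 0.109) in Cre against GFP and -0.30 (SE 0.10, adjusted p = 0.0668) in Flpo against Cre. Without Cre replicate 5 both passed, at 0.36 (adjusted p = 0.0313) and -0.37 (adjusted p = 0.0154). Over all alternatives the adjusted p ran from 0.0313 to 0.637 and from 0.0146 to 0.751.

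The wider pathway was followed through 10 lists with 104 other genes, of which 94 were tested. In Cre against GFP, 9 of the 94 were higher and 3 lower (12.8%, beside 9.55% of all genes), and in Flpo against Cre 9 were higher and 11 lower (21.3%, beside 13.7% of all genes). In Flpo against GFP, where 0.0288% of all genes passed in edgeR, none of the 94 passed. Of the 94, 13 had an unadjusted p under 0.05, beside 1353 of all 13905 genes. DESeq2 and both forms of limma-voom also called 0. The median log2 fold changes of the 94 were 0.05, 0.10 and 0.06 in Cre against GFP, Flpo against GFP and Flpo against Cre, beside 0.00, -0.01 and 0.00 for all genes. Leaving out each library in turn kept 7 of the 12 calls in Cre against GFP and 7 of the 20 in Flpo against Cre. Adcy1, counted among those kept in Cre against GFP, was tested in only 15 of the 16 leave-outs.

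Among 6 tested receptor genes, Adrb3, which encodes the beta-3 adrenergic receptor, was higher in Cre. It stood at 2.65, 2.32, 3.03, 1.76 and 1.36 CPM in GFP and at 7.65, 8.57, 5.73, 6.36 and 8.15 in Cre. In Flpo it ran from 0.632 to 5.40 with a median of 1.73. Every Cre library was above every library of the other groups, as in 3.58% of all genes for GFP and 3.3% for Flpo. Adrb3 had a log2 fold change of 1.71 (SE 0.39, edgeR adjusted p = 0.00993) in Cre against GFP and -1.76 (SE 0.36, adjusted p = 0.0037) in Flpo against Cre. Vipr1 and Adrb1, other receptors that couple to the same G protein, did not pass. None of the 7 G protein subunit genes passed in edgeR, where 2, 2 and 1 had an unadjusted p under 0.05 in the contrasts Cre against GFP, Flpo against GFP and Flpo against Cre. With sample weights, limma-voom called 1 of them in Flpo against Cre. Gnai2, an inhibitory subunit gene, had all Cre libraries below all GFP libraries, as 4.62% of all genes did. It stood at 82.1 ± 6.48 against 95.9 ± 3.88 CPM (SD, n = 5 each), with -0.22 (SE 0.08, edgeR adjusted p = 0.0814). Gnb2 stood at 86.0 ± 6.21 CPM in Flpo, 102 ± 7.82 in Cre and 102 ± 17.4 in GFP (SD, n = 6, 5 and 5).

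Of the other cyclase genes, Adcy1 was almost absent. Flpo libraries ran from 0.0387 to 0.469 CPM, Cre from 0.0522 to 3.68 and GFP from 0 to 0.106, and its 2 calls, higher in Cre than in GFP (edgeR adjusted p = 0.011) and lower in Flpo than in Cre (adjusted p = 0.0413), rest on such low counts that the fitted fold is not given. Adcy7 stood at 1.25 ± 0.409 CPM in Cre (SD, n = 5) and 2.16 ± 0.512 in Flpo (SD, n = 6), a log2 fold change of 0.80 (SE 0.26, adjusted p = 0.0448) that was lost in 12 of the 16 leave-outs. Adcy4 had 1 high library, Cre replicate 5 at 7.91 CPM, and did not pass.

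Of 8 other PKA genes, Pkib, which encodes a PKA inhibitor peptide, was higher in Flpo than in Cre. It ran from 0.472 to 1.73 CPM in Flpo and from 0.18 to 0.459 in Cre. Every Flpo library was thus above every Cre library, as in 4.49% of all genes. Pkib had a log2 fold change of 1.73 (SE 0.41, edgeR adjusted p = 0.0092). Its counts were so low that the size of this fold is uncertain. Prkar1b, a minor regulatory subunit here, was called higher in Cre than in GFP at 2.32 (SE 0.67, adjusted p = 0.0359), but 3.16 and 1.49 CPM in Cre replicates 2 and 5 stood over 0.133 to 0.416 in the rest of Cre, and 6 of the 16 leave-outs lost the call. Pkia and Pkig, the other inhibitor genes, did not pass. Of 8 genes for A-kinase anchors, which hold PKA at set places in the cell, Akap13 was higher in Flpo than in Cre, at 56.8 ± 7.72 (SD, n = 6) against 40.01 ± 7.80 CPM (SD, n = 5). Its log2 fold change was 0.51 (SE 0.16, adjusted p = 0.0427), lost in 9 of the 16 leave-outs. Akap1, the most abundant anchor gene by TPM, did not pass.

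Phosphodiesterases break down cyclic AMP, and 14 of their genes were tested. Pde4d was lower in Cre than in GFP, at 2.65 ± 0.597 against 4.26 ± 0.828 CPM (SD, n = 5 each), a log2 fold change of -0.68 (SE 0.19, edgeR adjusted p = 0.0337), and higher in Flpo than in Cre at 0.57 (SE 0.19, adjusted p = 0.0495). Pde4b was lower in Flpo than in Cre at -0.97 (SE 0.27, adjusted p = 0.0248), with Cre replicate 1 at 19.2 CPM above the other Cre libraries. Pde1a, a calcium-stimulated form, was higher in Flpo than in Cre at 1.29 (SE 0.40, adjusted p = 0.041). All 4 of these calls were lost in 3 to 14 of the 16 leave-outs. Pde3b, the insulin-activated form of liver and fat, was 75.5 ± 8.20 CPM in Flpo, 58.5 ± 11.3 in Cre and 57.3 ± 7.45 in GFP (SD, n = 6, 5 and 5). All Flpo libraries of Pde3b lay above all GFP libraries, as 0.676% of all genes did, with a log2 fold change of 0.40 (SE 0.12, adjusted p = 0.312).

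Downstream of EPAC, 12 Rap GTPase and regulator genes were tested. Rap1gap, which encodes a protein that switches Rap off, was lower in Cre than in GFP and higher in Flpo than in Cre. It was the 1 gene of the 12 called in each of these comparisons (8.33%, beside 9.55% and 13.7% of all genes). It stood at 7.93, 6.41, 6.99, 5.12 and 4.95 CPM in GFP and at 3.63, 3.01, 2.82, 2.89 and 4.48 in Cre. Flpo ran from 4.23 to 10.2 with a median of 6.55 CPM. All Cre libraries of Rap1gap lay below the GFP range, as in 4.62% of all genes, and 1 exceeded the lowest Flpo libraries. The log2 fold change of Rap1gap was -0.90 (SE 0.24, edgeR adjusted p = 0.0238) in Cre against GFP and 1.004 (SE 0.23, adjusted p = 0.00747) in Flpo against Cre. The former was lost without GFP replicate 1 or Cre replicate 2 or 3, with adjusted p up to 0.0677. Rap1a, the most abundant Rap gene by TPM, stood at 48.6 ± 4.81 CPM in Flpo, 43.9 ± 9.19 in Cre and 43.2 ± 3.04 in GFP (SD, n = 6, 5 and 5). Rapgef5, another exchange factor gene, had the smallest p of those that did not pass, at 0.81 (SE 0.24, adjusted p = 0.307) in Flpo against GFP.

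Among 10 genes of the CREB family, its coactivators and SIK kinases, Crem and Sik1 passed. Both are induced by cyclic AMP, and SIK1 holds CRTC2 out of the nucleus. Sik1 stood at 8.18, 14.8, 10.2, 9.56 and 9.50 CPM in GFP and at 30.9, 24, 15.5, 13.8 and 24 in Cre. Sik1 had a log2 fold change of 1.05 (SE 0.28, edgeR adjusted p = 0.0276) in Cre against GFP and -0.96 (SE 0.27, adjusted p = 0.0243) in Flpo against Cre. Crem stood at 13.1 ± 1.65 CPM in GFP (SD, n = 5) and at 32.3, 20.5, 18.5, 12.1 and 17.5 in Cre, where replicate 4 lay in the GFP range. Its log2 fold change was 0.63 (SE 0.18, adjusted p = 0.0383) in Cre against GFP and -0.61 (SE 0.17, adjusted p = 0.0264) in Flpo against Cre. These 4 calls of Sik1 and Crem were lost in 3 to 7 of the 16 leave-outs. Crtc3 and Stk11 did not pass. None of 6 receptor desensitisation genes passed in any comparison in edgeR, with 0 at an unadjusted p under 0.05 and 0 called by DESeq2 or limma-voom. Among them Grk6 and Grk2, kinases that uncouple receptors from G proteins, stood at 15.3 ± 1.03 and 26.4 ± 2.11 CPM in Cre and 13.4 ± 1.5 and 23.8 ± 3.50 in GFP (SD, n = 5 each).

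The list of known cyclic AMP and CREB target genes held 18 tested members. In Cre against GFP, Pck1, Irs2, Igfbp1 and Got1 were higher and Dusp1 lower (5 of 18, or 27.8%, beside 9.55% of all genes). In Flpo against Cre, Per1 and Dusp1 were higher and Pck1, Nr4a1, Irs2, Igfbp1, Pdk4 and Got1 lower (8 of 18, or 44.4%, beside 13.7% of all genes). Cre against GFP had a median log2 fold change of 0.90 over the 18, Flpo against GFP one of 0.28, and Flpo against Cre one of -0.43. Of the 16 target genes with a promoter window, 8 held the core TGACG and 1, Dusp1, the full element. These genes had 19 windows. The 17.8% and 1.55% given above are per window, so they are not a like measure for counts by gene.

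Pck1 encodes the cytosolic enzyme that commits carbon to glucose production. Its levels were 898, 845, 1476, 1285 and 2367 CPM in GFP and 4534, 3119, 3142, 2491 and 3767 in Cre. In Flpo the lowest value was 1327, the median 1926 and the highest 2445 CPM. Each Cre library was above every library of the other groups, as 3.58% of all genes were for GFP and 3.3% for Flpo. The log2 fold change of Pck1 was 1.31 (SE 0.25, edgeR adjusted p = 0.00381) in Cre against GFP and -0.86 (SE 0.24, adjusted p = 0.0241) in Flpo against Cre, the latter lost without Cre replicate 1 or 5 (adjusted p up to 0.0628). G6pc, which encodes the last enzyme of glucose release, stood at 159 ± 34.2 CPM in GFP and 256 ± 71.4 in Cre (SD, n = 5 each) and did not pass, at 0.68 (SE 0.27, adjusted p = 0.128).

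Irs2 encodes an adaptor of the insulin receptor. It stood at 11.6, 16.5, 6.38, 5.71 and 7.67 CPM in GFP and at 38.4, 20.7, 22.5, 28 and 38.4 in Cre. Flpo ran from 5.89 to 12.7 with a median of 9.72 CPM. The Cre libraries of Irs2 lay above both other groups, as in 3.58% of all genes for GFP and 3.3% for Flpo. Its log2 fold change was 1.63 (SE 0.29, edgeR adjusted p = 0.00204) in Cre against GFP and -1.61 (SE 0.27, adjusted p = 0.000952) in Flpo against Cre, and both calls were kept in all 16 leave-outs.

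Igfbp1, a secreted binder of insulin-like growth factors, and Got1, a transaminase, were higher in Cre with a wide spread. Igfbp1 stood at 205, 76.0, 28.2, 49.0 and 425 CPM in Cre against 16 to 31.8 for GFP and 13.9 to 63.2 for Flpo. Its log2 fold change was 2.79 (SE 0.66, edgeR adjusted p = 0.0166) in Cre against GFP and -2.39 (SE 0.61, adjusted p = 0.0177) in Flpo against Cre, the latter lost without Cre replicate 5 (adjusted p = 0.0661). Got1 stood at 725, 131, 199, 98.2 and 721 CPM in Cre against 73.3 to 107 for GFP and 85.5 to 136 for Flpo. The 2 highest Cre libraries, replicates 1 and 5, were the same for both genes. The log2 fold change of Got1 was 2.11 (SE 0.48, adjusted p = 0.0125) in Cre against GFP and -1.80 (SE 0.44, adjusted p = 0.0143) in Flpo against Cre.

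Dusp1, which encodes a phosphatase that inactivates JNK and other MAP kinases, moved the other way. It stood at 13.8, 22, 20.3, 18.3 and 24 CPM in GFP and at 14.4, 10.9, 6.16, 10.9 and 11.2 in Cre, where only replicate 1 reached the GFP range. In Flpo it ran from 14.5 to 27.3 with a median of 18.5 CPM. Its log2 fold change was -0.88 (SE 0.21, edgeR adjusted p = 0.0156) in Cre against GFP and 0.87 (SE 0.21, adjusted p = 0.00952) in Flpo against Cre. Pdk4, which encodes a kinase that spares glucose by blocking pyruvate oxidation, was lower in Flpo than in Cre, at 7.27 ± 2.14 (SD, n = 6) against 21.8 ± 10.5 CPM (SD, n = 5), a log2 fold change of -1.58 (SE 0.37, adjusted p = 0.00963). Per1, a clock gene that cyclic AMP induces, was higher in Flpo than in Cre at 1.23 (SE 0.37, adjusted p = 0.0362), and Nr4a1, an immediate-early nuclear receptor gene, lower at -1.59 (SE 0.51, adjusted p = 0.0474). These 2 calls were lost in 7 and 11 of the 16 leave-outs. Nr4a2, a related receptor gene, had every Flpo library above every GFP library, as in 0.676% of all genes. It stood at 0.496 ± 0.166 CPM in Flpo (SD, n = 6) against 0.152 ± 0.0496 in GFP (SD, n = 5). Nr4a2 did not pass at 1.75 (SE 0.46, edgeR adjusted p = 0.245), and at such low counts the size of this fold is uncertain. Arg1, the urea cycle arginase gene, did not pass, with Cre replicates 1 and 5 at 2004 and 2717 CPM over 682 to 874 in the rest of Cre.

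**Figure D4:**
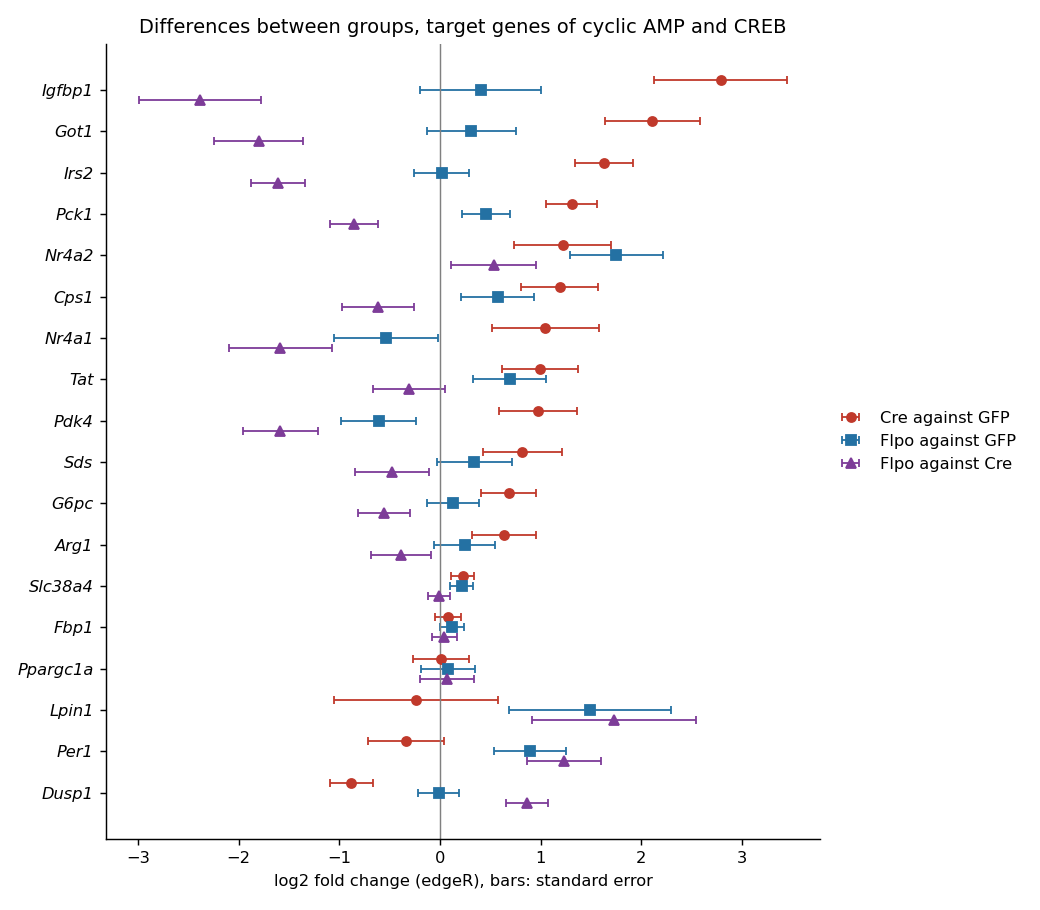
Log2 fold change (horizontal axis) of genes from the list of cyclic AMP and CREB targets in the 3 comparisons, with bars for the standard error. Pck1, Irs2, Igfbp1 and Got1 lie above 0 in Cre against GFP and below 0 in Flpo against Cre, and Dusp1 lies the other way.

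A score of 12 clock genes moved with the groups. It is the mean of standardised log2 levels of Arntl, Npas2, Clock, Nfil3 and Cry1 minus that of Dbp, Nr1d1, Nr1d2, Tef, Hlf, Per3 and Ciart. It was -0.777 to 0.588 in GFP, -1.71 to -0.325 in Flpo and 1.61 to 2.22 in Cre replicates 1, 2, 3 and 5, while Cre replicate 4 stood at -0.289, within the GFP range. In that library Rapgef4 was 180 CPM, beside 68.2 to 77.7 in GFP, and Adcy6 was 31.1 CPM. It is 1 library of the contrast that chose Rapgef4, and the part of the clock in these levels was not tested. Adcy9 was there at its highest for Cre, 15.6 CPM, and Prkar1a at its lowest for Cre, 130 CPM.

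With the clock score as a covariate, the log2 fold change of Rapgef4 in Cre against GFP was 1.29. In Flpo against Cre the log2 fold changes were 0.53 for Adcy6 (edgeR adjusted p = 0.533), 0.28 for Adcy9 (adjusted p = 0.834) and -0.05 for Prkar1a (adjusted p = 0.971), so none of the 3 calls held. With this covariate Cre against GFP had 141 calls over all genes, Flpo against GFP had 0 and Flpo against Cre 22, and none of the 94 wider genes was called. In Cre against GFP the log2 fold changes of Pck1, Adrb3, Dusp1 and Rap1gap were 1.26, 1.85, -0.97 and -1.02 with it, beside 1.31, 1.71, -0.88 and -0.90 without, while those of Got1 and Igfbp1 were 0.72 and 1.18, beside 2.11 and 2.79. The 12 wider calls in Cre against GFP kept their sign, and 16 of the 20 in Flpo against Cre did. The score separates every Cre library from every Flpo library, narrowly at Cre replicate 4, so score and group cannot be told apart for most libraries.

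**Figure D5:**
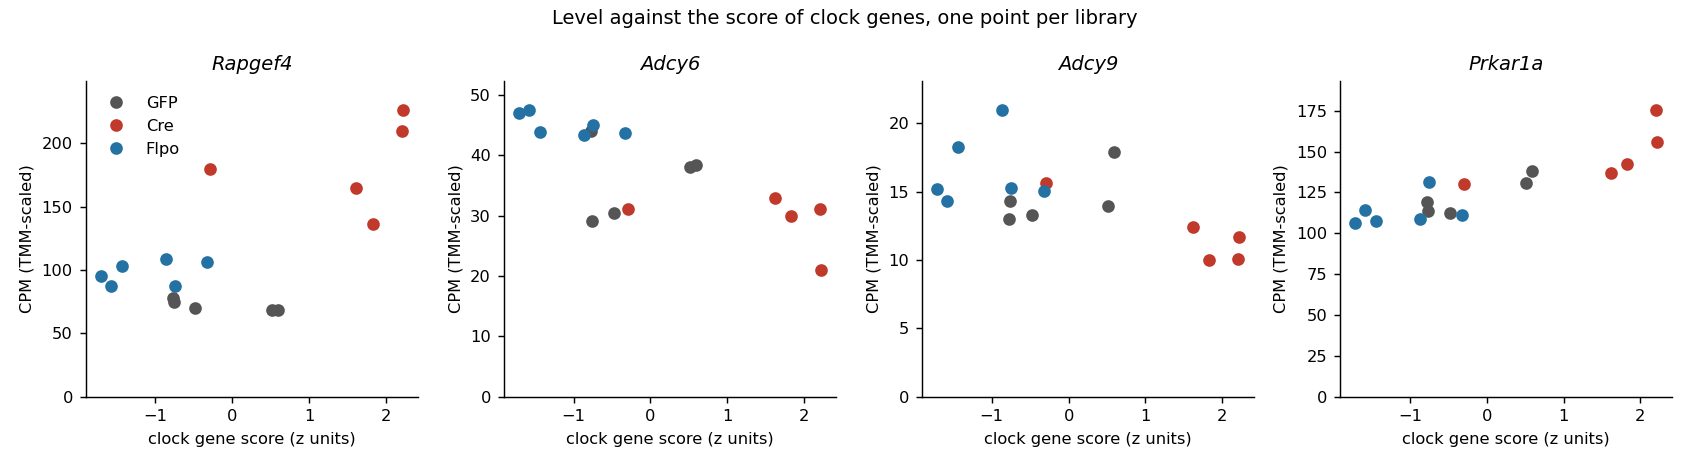
Level in CPM (vertical axis, from 0) against the clock gene score (horizontal axis, mean of standardised values), 1 point per library, coloured by group. Cre replicate 4, at a score of -0.289, has Rapgef4 at 180 CPM beside 68.2 to 77.7 in GFP. That is 1 library, and no test rests on it.

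The genes whose pattern over the 16 libraries was most like that of Rapgef4, by the root mean square difference of centred log2 CPM among 11788 genes, were Paqr3 (0.24), Nlrp12 (0.24), Gfra1 (0.25), Zdhhc13 (0.27) and Spin1 (0.27). Gfra1, which encodes a receptor chain for glial cell line-derived neurotrophic factor, averaged 139 ± 13.1 CPM in Flpo, 246 ± 90.1 in Cre and 125 ± 10.6 in GFP (SD, n = 6, 5 and 5). These genes were picked by their likeness to Rapgef4, so a higher level in Cre follows from the choice and is not a separate result. Nearest to Gcgr were Mtch1 (0.09), Asgr2 (0.09), F10 (0.10), Tmem205 (0.10) and F2 (0.10). Of these, Asgr2 encodes a hepatocyte receptor chain, and F10 and F2 encode clotting factors of the liver. F2 averaged 1721 ± 122 CPM in Flpo, 1638 ± 186 in Cre and 1703 ± 111 in GFP (SD, n = 6, 5 and 5).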

How the data were processed

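RNA for 16 liver libraries was prepared with an RNeasy kit and DNase, enriched for polyA and read as pairs of 150 bases on a NovaSeq, per the labels' protocols. The submitters' processing notes name cutadapt, STAR and mm10, with no versions. Which program counted reads, over which annotation, and whether it used strand is not given in the sources used here. The authors deposited estimated counts per gene, of which 31.7% were not whole, and TPM values for the same genes. In 10835 well-covered genes each deposited estimated count was the TPM times 1 factor per gene and 1 per library.

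Rounded estimated counts entered edgeR 4.0.16 (R 4.3.3): filterByExpr with a minimum count of 10, TMM scaling, and 1 robust quasi-likelihood fit over all 16 libraries, with contrasts between groups. Genes with a Benjamini-Hochberg adjusted p under 0.05 over the 13905 genes were called. CPM values use the TMM factors, and fold changes come from the fit. Shares use TPM and an exact permutation test over libraries (scipy 1.17.1). DESeq2 1.42.0, limma 3.58.1, 1 surrogate variable (sva 3.50.0), other scalings, filters and covariates, and each library left out were alternatives. The fit was tested on simulated data. Gene positions come from the GENCODE annotation of GRCm38, with chromosome names as there, and 1 listed gene was found under its current symbol, Grk2.

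The 10 genes, the pathway lists and the rule for named genes (all 10 genes, every listed gene called in any comparison, the 1 uncalled gene per list with the smallest p and the most abundant one, and the 5 nearest to Rapgef4 and to Gcgr) were chosen with earlier results of these data known. G6pc and Prkar2a were added after their values were seen. The result of a gene that the rule names is not reported here. P-values measure the spread between libraries, which the labels do not tie to separate mice. Title numbers follow the groups block by block, so batches of mice or harvests and the groups cannot be told apart.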

Additional observations from a re-analysis of the deposited data

Results flagged for a closer look

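In 9 of 45 groups of libraries tested, 1 library stood apart from the others of its group by Dixon's gap test, which chance alone marks in about 1 in 20 groups. In CPM these were Gcgr in Flpo replicate 4 at 173 (next 188), Gnas in GFP replicate 5 at 523 (next 476) and in Cre replicate 1 at 401 (next 474), Adcy6 in Cre replicate 5 at 21.1 (next 30.0), Adcy9 in GFP replicate 1 at 17.9 (next 14.3), and Prkar1a in Flpo replicate 1 at 131 (next 114). Among shares of TPM they were Adcy6 among cyclases in Cre replicate 5 at 44.0% (next 62.1%), and Rapgef4 among EPAC genes in Cre replicate 2 at 96.0% (next 98.9%) and in Flpo replicate 5 at 96.2% (next 98.3%). The difference of Adcy6 between Flpo and Cre kept its call without Cre replicate 5.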

How the results depend on the processing

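In all, 31 alternatives were run, 16 of which left out 1 library each. The count of the 9 genes other than Rapgef4 called in Cre against GFP was 0, and became 2 with library totals alone and with limma on log2(TPM + 1) or log2(TPM + 0.1), 1 with DESeq2, 1 with limma-voom and sample weights, and 0 to 1 without single libraries. In Flpo against Cre it was 3, became 0 with the clock score and ran from 2 to 4 without single libraries. The wider genes called in Cre against GFP, 12, became 0 with the clock score, 3 at an adjusted p of 0.01, and 8 to 15 without single libraries. Those in Flpo against Cre, 20, became 12 with no filter, 0 with the clock score, 6 at 0.01, and 11 to 23 without single libraries. The clock score is partly the group itself. The other causes were not tested.

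Same-numbered libraries did not pair: of 15 pairs, 1 correlated over 0.1, and 3 of 15 libraries correlated best with their own number. With the replicate block, which drops Flpo replicate 6, the counts were 1 of 9 (Prkar1a, 0.28, adjusted p = 0.0454) in Cre against GFP, 3 in Flpo against Cre, and 9 and 13 for the wider genes. Over all genes the block gave 1019, 0 and 1352 calls in Cre against GFP, Flpo against GFP and Flpo against Cre, beside 1328, 4 and 1906.

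Over all genes the calls of Cre against GFP, 552 higher and 776 lower, became 300 and 1656 with library totals alone and 218 and 1909 with log2(TPM + 1). Those of Flpo against Cre, 1036 and 870, became 1810 and 454, and 2443 and 327. Cre against GFP gave 834 calls with only its own libraries, 475 at 0.01 and 2206 with log2(TPM + 0.1). Flpo against Cre gave 881 at 0.01. Flpo against GFP gave 70 with DESeq2, 20 with sample weights, 0 with limma-voom, and 0 to 15 without single libraries.

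No call reversed among the 9 genes, but small uncalled differences did, 46 in all and at most 0.197 in size. Gcgr became -0.12 (library totals) and -0.18 (both TPM settings) in Cre against GFP, 0.020 (sample weights), 0.018 (both TPM settings) and 0.0016 (surrogate variable) in Flpo against GFP, and 0.10 (library totals) and 0.20 (TPM) in Flpo against Cre. Gnas became 0.038 (clock score) in Cre against GFP, and 0.058 (library totals) and 0.14 (TPM) in Flpo against Cre. Creb1 in Cre against GFP became -0.13 (library totals), -0.012 (sample weights), -0.10 and -0.15 (TPM). In Flpo against GFP, Prkar1a became 0.0052 (clock score), Rapgef3 0.025 (sample weights) and Crtc2 0.0073 (surrogate variable), 0.016 and 0.017 (TPM). With the clock score, Flpo against Cre became -0.023 for Prkaca, 0.97 for Adcy1, 0.020 for Crem, 1.26 for Nr4a1, 0.23 for Got1 and -0.035 for Adrb1, none called. Without single libraries, Gcgr ran from -0.025 to 0.13, -0.054 to 0.035 and -0.14 to 0.013 in Cre against GFP, Flpo against GFP and Flpo against Cre, and Rapgef3 from -0.11 to 0.70, -0.48 to 0.18 and -0.93 to 0.014. Gnas ran from -0.061 to 0.0032, Creb1 from -0.049 to 0.10 and Adcy4 from -0.0017 to 0.92 in Cre against GFP, and Crtc2 from -0.059 to 0.038 in Flpo against GFP.

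Without single libraries, the Prkar1a share differed by -4.84 to -3.73 points in Flpo against GFP and -7.83 to -5.96 in Flpo against Cre. Without a GFP or a Cre library the adjusted p of each was 0.0571, since 4 libraries against 6 allow no smaller one here. The Prkaca share ran from -1.24 to 0.43 and the Adcy6 share from -5.68 to 0.335 in Cre against GFP, and the Adcy9 share from -1.08 to 1.37 in Flpo against Cre. Counts limit Rapgef3, Adcy1, Pkib and Nr4a2, which were near 1 CPM or below.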
